A study of Homo sapiens with 12 samples.

Results

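BCL11B, IL2RB, FYN and TMEM154 are 4 of the 60675 genes counted in each library, grouped here as lymphoid-type genes. BCL11B and IL2RB are better known from lymphocytes than from prostate epithelium. The 4 genes were picked because C4-2 cells lost most of their mRNA under 1 or more inhibitor treatments, in some cases with a return towards the starting level when the inhibitors were given together. Values of the C4-2 treatments chose the genes, with no fixed numeric threshold, so those values are given as a description and without a test. BCL11B encodes a zinc finger transcription factor that commits thymic progenitors to the T cell fate and that recruits the NuRD and BAF chromatin complexes. IL2RB encodes the beta chain shared by the receptors for interleukin 2 and interleukin 15, which signals through JAK kinases and STAT5. FYN encodes a SRC family tyrosine kinase that acts beside LCK at the T cell receptor and is also used by many non-lymphoid cells in adhesion signalling. TMEM154 encodes a single-pass membrane protein whose function is little described.

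RNA was sequenced from 12 libraries in 6 groups of 2, which the study's methods call biological replicates. C4-2 is a castration-resistant line derived from LNCaP, an androgen-dependent prostate cancer line grown from a lymph node metastasis. All groups received the synthetic androgen R1881 at 1 nM, and treatment lasted 72 h. The C4-2 groups were R1881 alone, R1881 with namoline (50 µM), an inhibitor of the histone demethylase KDM1A, R1881 with TCE-5002, an inhibitor of the histone demethylase KDM7A, and R1881 with both, called the combination. LNCaP was labelled in 2 groups, R1881 alone and the combination. TCE-5002 is given at 100 µM in the series description and at a lower dose in the study's methods, so its dose is uncertain. KDM1A takes methyl groups off lysines 4 and 9 of histone H3, and KDM7A takes them off lysines 9 and 27, so both enzymes can alter how readily a gene is transcribed.

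Library totals ran from 14791602 to 20690819 counts, and replicate libraries correlated across genes at r = 0.991 to 0.997. With R1881, the libraries labelled LNCaP held 376 CPM of the prostate gene KLK3, against 217 CPM in C4-2. All other listed prostate epithelial markers were lower in them, such as FOLH1 (35.9 against 877 CPM), EPCAM (3.75 against 139 CPM) and the epithelial cadherin CDH1 (42 against 977 CPM). The mesenchymal gene VIM stood at 686 CPM in them against 2.45 CPM in C4-2. Not all mesenchymal genes went that way, with COL1A1 at 4.44 against 50.1 CPM. These libraries are therefore called LNCaP-labelled below. Inside its file, the LNCaP-labelled combination replicate 1 carries a column name with namoline and no TCE-5002. Values of the LNCaP-labelled comparison are therefore also given without it, where it then rests on 1 combination library.

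The first question was whether lymphocyte RNA was present, since these genes were grouped as lymphoid in type. Of 25 markers of T, B and NK cells, 3 (CD2, TRBC1 and TRBC2) had 0 counts in all 12 libraries, which allows at most 3 counts or 0.195 CPM in a library. In total, 20 of the 25 stayed under 1 CPM in every library. The pan-leukocyte gene PTPRC reached 0.155 CPM at most and the T cell receptor component CD3E 0.0910 CPM. Their summed level was 2.59 to 5.25 CPM per C4-2 library, where CD8A was the only marker with a group mean of 1 CPM or more. The sum ranged from 4.07 to 4.35 CPM with R1881, 2.96 to 4.50 CPM with namoline, 2.59 to 5.25 CPM with TCE-5002 and 4.19 to 4.26 CPM with the combination. The 4 C4-2 groups overlapped on this sum. Of the 3 markers tested in C4-2, edgeR called 0 with namoline or TCE-5002, where 0 had an unadjusted p under 0.05 and DESeq2 called 0. With the combination CD8A was called lower and CD247 higher, both at levels under 3 CPM, while 21.7% of all genes were called in either direction. DESeq2 called neither, and both calls were lost on leaving out either combination library, CD8A also without R1881 replicate 1 and CD247 also without R1881 replicate 2. In the LNCaP-labelled libraries the sum was 119 to 121 CPM, of which NCAM1, also a neural adhesion gene, made up 110 CPM in each group. Of 5 markers tested there, CD4 was called higher and ZAP70 lower. Without combination replicate 1, CD4 was still called (3.01 on the log2 scale) and ZAP70 was not (-0.94), and CD247, tested only then, was called lower. These 4 genes fell outside the rule for naming genes and were named after their values were seen. In these bulk libraries, fewer cells with a transcript and less of it per cell cannot be told apart.

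All 4 genes are protein coding and lie on the minus strand of GRCh38. BCL11B (ENSG00000127152) spans chr14:99169287-99271524 with 4 merged exons of 7855 bases, IL2RB (ENSG00000100385) spans chr22:37125838-37175054 with 12 merged exons of 4700 bases, FYN (ENSG00000010810) spans chr6:111660332-111873452 with 29 merged exons of 7411 bases, and TMEM154 (ENSG00000170006) spans chr4:152618632-152680165 with 9 merged exons of 11587 bases. The genes thus sit on 4 different chromosomes and share no neighbourhood. Counts were summed over all exons of a gene, so the transcripts of 1 gene are not separated.

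Promoters are shown for the 3 genes with a RefSeq entry, because both inhibited enzymes act on chromatin and the changes below are changes in the amount of mRNA. Each run is the 250 bases before the RefSeq start (GRCh38.p14, minus strand, written 5′ to 3′), with capitals marking matches on either strand to any of the 8 motifs searched. The BCL11B window is chr14:99272198-99272447, the FYN window, the one of its 4 whose start meets the gene model of the files, is chr6:111873453-111873702, and the TMEM154 window is chr4:152679998-152680247. The other 2 starts do not meet the gene model. That of BCL11B lies 673 bases upstream of it and that of TMEM154 168 bases inside it, so the TMEM154 window overlaps the gene span given above.
BCL11B: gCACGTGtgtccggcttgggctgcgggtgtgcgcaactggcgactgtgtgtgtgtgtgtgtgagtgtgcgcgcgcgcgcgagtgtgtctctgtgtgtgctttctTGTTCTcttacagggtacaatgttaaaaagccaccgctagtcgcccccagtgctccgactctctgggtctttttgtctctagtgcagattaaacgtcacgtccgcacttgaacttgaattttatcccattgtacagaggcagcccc
FYN: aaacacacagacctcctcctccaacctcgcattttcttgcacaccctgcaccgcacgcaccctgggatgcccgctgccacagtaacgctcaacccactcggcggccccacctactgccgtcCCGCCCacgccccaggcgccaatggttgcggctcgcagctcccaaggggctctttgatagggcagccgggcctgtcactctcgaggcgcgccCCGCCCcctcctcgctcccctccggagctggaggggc
TMEM154: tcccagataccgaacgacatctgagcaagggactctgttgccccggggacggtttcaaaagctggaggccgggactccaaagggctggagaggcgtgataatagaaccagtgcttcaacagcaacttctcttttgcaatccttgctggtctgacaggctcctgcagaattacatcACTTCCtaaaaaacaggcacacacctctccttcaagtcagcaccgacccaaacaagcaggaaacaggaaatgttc

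The motifs searched were TGTGGT (RUNX), GGAAGT (ETS), AGAACA (androgen receptor half-site), GTAAACA (forkhead), GGGCGG (GC box), CACGTG (E-box), TGACTCA (AP-1) and TTCNNNGAA (STAT), and no matches overlapped in these windows. BCL11B held an E-box at -249 to -244 from the start, a motif found in 6.34% of all 35116 promoter windows of this length, and an androgen receptor half-site on the opposite strand at -146 to -141, found in 12.4%. FYN held 2 GC boxes, at -129 to -124 and at -37 to -32, a motif found in 42.6%. TMEM154 held 1 ETS match at -75 to -70, found in 19.5%. No motif was found in more than 1 of the 3 windows shown. Of the 3 other FYN windows, 1 held 8 GC boxes and 1 held an androgen receptor half-site, the motif also found in the BCL11B window. They also differed in base composition, with 54.8% G and C and 17 CpG sites for BCL11B, 68.8% and 20 for FYN, and 51.2% and 7 for TMEM154, beside medians of 58.0% and 11 over all windows. A match is a stretch of letters and says nothing of binding.

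In C4-2 cells given R1881 alone, all 4 genes were clearly transcribed. BCL11B stood at 27.5 and 28.1 CPM in the 2 libraries, IL2RB at 27.5 and 30.3 CPM, FYN at 21.2 and 21.2 CPM, and TMEM154 at 15.9 and 15.5 CPM. The coefficient of variation between replicates was largest for IL2RB, at 6.98%. Scaled to exon length, mean levels were 6.15 CPM per kb for IL2RB, 3.54 for BCL11B, 2.86 for FYN and 1.35 for TMEM154. IL2RB, the cytokine receptor chain, was thus the most abundant of the 4 per unit of length.

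**Figure D1:**
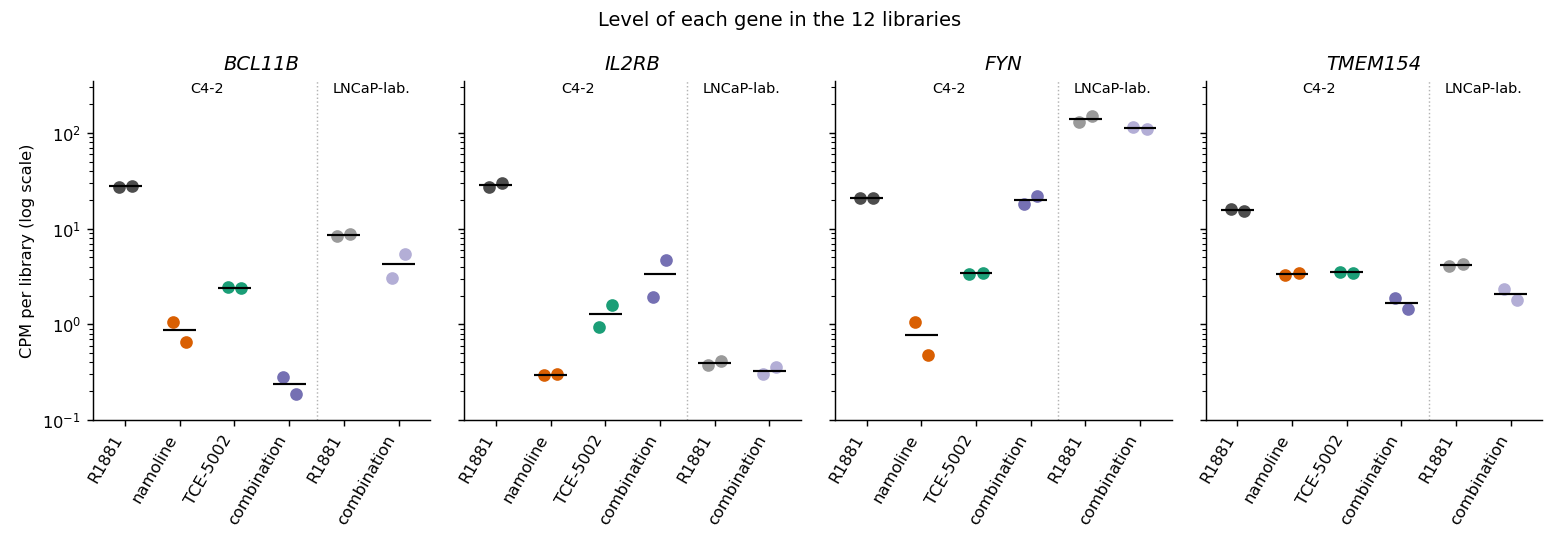
Level of BCL11B, IL2RB, FYN and TMEM154 in each of the 12 libraries, in CPM on a log axis. Points are libraries, horizontal bars are group means (n = 2), and the dotted line separates C4-2 from the libraries labelled LNCaP. FYN with the combination (18.3 and 22.0 CPM) returned to the level of R1881 alone, while BCL11B stood at 0.284 and 0.188 CPM.

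BCL11B, the T cell commitment factor, was lower with each inhibitor and lowest with both. Namoline left 1.07 and 0.659 CPM, a mean of 0.862 ± 0.287 (SD, n = 2). TCE-5002 left 2.43 and 2.41 CPM, a mean of 2.42 ± 0.0168, and the combination left 0.284 and 0.188 CPM, a mean of 0.236 ± 0.0679. No library of one treatment overlapped with another, and the order was R1881, TCE-5002, namoline, combination. As a share of the R1881 level, 8.72% remained with TCE-5002 (95% counting interval 6.98 to 10.8), 3.10% with namoline (2.07 to 4.50) and 0.848% with the combination (0.369 to 1.70). The last value rests on 8 counts in the 2 libraries together, against 1020 with R1881. These intervals are exact conditional binomial intervals and cover counting error only. In log2 fold change, BCL11B was -5.01 (SE 0.24) with namoline, -3.52 (SE 0.20) with TCE-5002 and -6.85 (SE 0.29) with the combination. The combination gave the most negative value of the 10617 genes with a mean of at least 10 CPM in any C4-2 group. The genes were chosen for large falls or reversals in C4-2, so this rank restates the choice. BCL11B also reached 10 CPM only with R1881, and a set built in that way favours large falls. The combination was lower than namoline by a log2 fold change of -1.84 (SE 0.47) and lower than TCE-5002 by -3.34 (SE 0.38). The combination lay 1.68 (SE 0.61) above the sum of the log2 effects of the single inhibitors. That sum implies a level under 3 counts a library, and the combination libraries themselves held 5 and 3 counts. Whether the 2 effects add up therefore cannot be told at this depth.

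IL2RB, the receptor chain, was most depleted by namoline and recovered part of its level with both inhibitors. Namoline left 0.296 and 0.300 CPM, which is 5 counts in each library. TCE-5002 left 0.932 and 1.61 CPM, and the combination 1.93 and 4.75 CPM. The order was R1881, combination, TCE-5002, namoline, and although no libraries of neighbouring groups overlapped, the gap between combination (3.34 ± 2.00 CPM) and TCE-5002 (1.27 ± 0.477 CPM) was smaller than the sum of their SDs. Relative to R1881, 1.03% remained with namoline (95% counting interval 0.497 to 1.92), 4.39% with TCE-5002 (3.23 to 5.89) and 11.6% with the combination (9.29 to 13.9). The log2 fold changes were -6.58 (SE 0.41), -4.50 (SE 0.32) and -3.15 (SE 0.29) in that order, and the first was the most negative of the 10617 genes. IL2RB was chosen on these values, so this rank and that of the excess below restate the choice. It also reached 10 CPM only with R1881, and a set built in that way favours large falls. Against namoline the combination was higher by 3.43 (SE 0.51) on the log2 scale, and against TCE-5002 by 1.35 (SE 0.37). The latter value was 0.59 without combination replicate 2 and 1.87 without combination replicate 1, so the size of the return depended on the library. Leaving out combination replicate 2 also moved the value against R1881 to -3.91, that against namoline to 2.69 and the excess over the sum, given next, to 7.19. Together, the inhibitors left IL2RB 7.93 log2 units (SE 0.58) above the sum of their single effects, the most positive such value of the 10617 genes. That sum implies a level too low to be counted at this depth, and namoline alone already left 5 counts in each library. The size of this excess is therefore uncertain.

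FYN, the SRC family kinase, was low with each single inhibitor and was back at its starting level with both. Its mRNA stood at 1.07 and 0.480 CPM with namoline and at 3.37 and 3.48 CPM with TCE-5002. With the combination it stood at 18.3 and 22.0 CPM, a mean of 20.1 ± 2.57 beside 21.2 ± 0.0107 with R1881. The combination libraries fell on either side of the R1881 libraries, whereas the single treatments did not overlap with any other group. The share of the R1881 level was 3.65% with namoline (95% counting interval 2.37 to 5.40), 16.2% with TCE-5002 (13.3 to 19.5) and 95.2% with the combination (85.3 to 105). In log2 fold change this was -4.78 (SE 0.26), -2.63 (SE 0.20) and -0.10 (SE 0.18). Without combination replicate 1 the last value was 0.027, so its sign is not fixed by these libraries. By the fitted values FYN mRNA was 25.6-fold higher with both inhibitors than with namoline and 5.76-fold higher than with TCE-5002. On the log2 scale the gap to namoline was 4.68, and it was 5.38 without namoline replicate 1 and 4.23 without namoline replicate 2, so the first fold turned on which namoline library was kept. Without namoline replicate 1 the namoline value itself was -5.48. The combination lay 7.30 log2 units (SE 0.33) above the sum of the single effects, the third most positive value of the 10617 genes, and 7.998 above it without namoline replicate 1. The level that this sum implies is under 3 counts a library, so the size of the excess is uncertain. Since FYN was chosen on these values, its rank restates the choice.

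TMEM154, the membrane protein, kept the largest share of its level with each single inhibitor, and a similar share with either. Namoline left 3.31 and 3.42 CPM and TCE-5002 left 3.52 and 3.48 CPM, and their means of 3.37 ± 0.0733 and 3.50 ± 0.0284 CPM differed by 1.04-fold. The combination left 1.87 and 1.44 CPM, below every library of the single treatments. These levels were 21.5% (95% counting interval 17.3 to 26.2), 22.3% (18.3 to 26.9) and 10.6% (7.91 to 14.0) of the R1881 level. On the log2 scale the changes were -2.23 (SE 0.19), -2.16 (SE 0.19) and -3.26 (SE 0.21). The combination was lower than namoline by -1.02 (SE 0.24) and lower than TCE-5002 by -1.10 (SE 0.24), and it lay 1.14 (SE 0.31) above the sum of the single effects.

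Set side by side, the 4 genes split by what the combination did. With BCL11B and TMEM154, mRNA was lower with both inhibitors than with either alone, at 0.848% and 10.6% of the R1881 level. With IL2RB and FYN, it was higher with both than with either alone, at 11.6% and 95.2%, although for IL2RB the gap to TCE-5002 was within the spread. The order R1881, TCE-5002, namoline, combination, shared by BCL11B and TMEM154, was held by 5.08% of the 17702 C4-2 genes tested, and the order R1881, combination, TCE-5002, namoline, shared by IL2RB and FYN, by 3.71%. Both libraries lay below both R1881 libraries for 4 of the 4 genes with namoline, 4 of 4 with TCE-5002 and 3 of 4 with the combination. Over all genes tested that held for 35.4%, 32.9% and 40.7%, and since the genes were chosen on these libraries nothing is read from the difference. The 3 C4-2 treatments were all compared with the same 2 R1881 libraries.

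**Figure D2:**
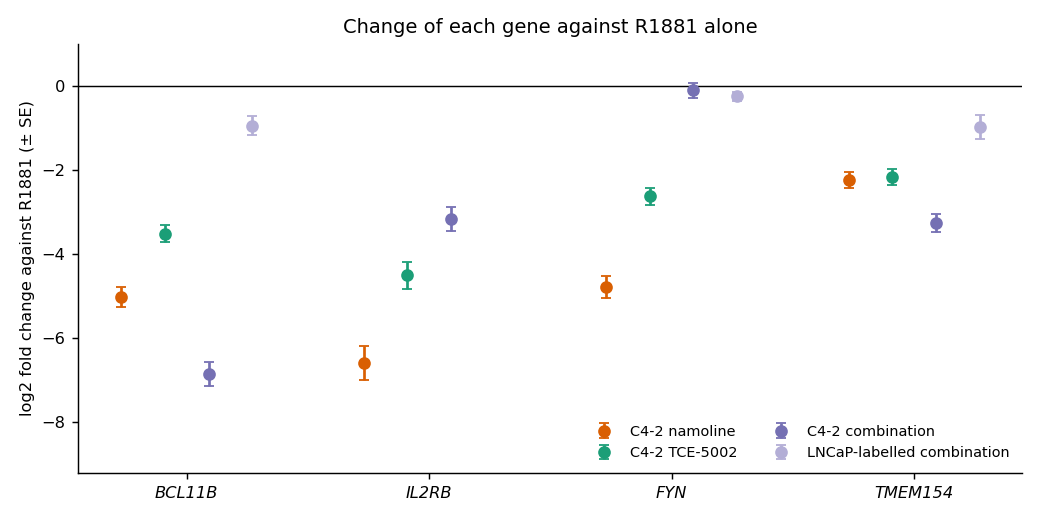
Log2 fold change against R1881 alone for the 4 genes, under the 3 treatments of C4-2 and in the LNCaP-labelled combination, with bars showing the SE. FYN sits near 0 with the combination in both sets of libraries, BCL11B ranges from -6.85 to -0.94, and IL2RB has no LNCaP-labelled point because it fell below the count filter there.

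The LNCaP-labelled libraries played no part in choosing the genes, so the combination could be tested there against R1881, with edgeR's quasi-likelihood test and Benjamini-Hochberg adjustment over all 17565 genes tested. BCL11B stood at 8.42 and 8.82 CPM with R1881 and at 3.09 and 5.43 CPM with the combination. Both combination libraries were below both R1881 libraries, a mean of 4.26 ± 1.66 against 8.62 ± 0.286. The log2 fold change was -0.94 (SE 0.23, edgeR adjusted p = 0.000684), just short of the 2-fold change that a call also needed. Without combination replicate 1, the library with the doubtful column name, it was -0.61, and without combination replicate 2 it was -1.42, which would be called. BCL11B thus differed between the groups, by an amount that turned on which combination library was kept.

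TMEM154 showed a similar difference, from 4.09 and 4.32 CPM with R1881 to 2.36 and 1.78 CPM with the combination. The groups did not overlap. Its log2 fold change was -0.97 (SE 0.29, edgeR adjusted p = 0.00454), again short of 2-fold. It passed 2-fold without combination replicate 1 (-1.19) and without R1881 replicate 1 (-1.02), and was -0.77 without combination replicate 2.

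FYN was abundant in the LNCaP-labelled libraries, at 129 and 149 CPM with R1881 and at 115 and 112 CPM with the combination. All combination values were below all R1881 values, but by little, at -0.24 on the log2 scale (SE 0.10, edgeR adjusted p = 0.0499). Over the 9 alternative settings the adjusted p ran from 0.0358 to 0.464 and was under 0.05 in 4 of them, so this difference did not hold up. IL2RB was close to absent, at 0.372 and 0.409 CPM with R1881 and at 0.303 and 0.355 CPM with the combination, or 5 to 9 counts a library. It fell below the count filter and was not tested, and any change was not detectable at this depth.

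Of the 3 genes tested in the LNCaP-labelled libraries, 3 had an adjusted p under 0.05 with a lower level, as did 28.2% of all genes tested, and 0 were called at 2-fold or more, beside 11.3% of all genes called lower. DESeq2 also called 0 at 2-fold, and 3 had an unadjusted p under 0.05 in edgeR. Without combination replicate 1, TMEM154 alone was called lower. All 3 tested genes had both combination libraries below both R1881 libraries, an arrangement seen for 42% of all genes tested, and so did IL2RB.

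Starting levels differed between the lines, as a description without a test because line and label cannot be told apart. With R1881 alone, IL2RB was 74.0-fold higher in C4-2 than in the LNCaP-labelled libraries (28.9 against 0.391 CPM), TMEM154 3.73-fold higher (15.7 against 4.21 CPM) and BCL11B 3.22-fold higher (27.8 against 8.62 CPM). FYN was the reverse, 6.58-fold higher in the LNCaP-labelled libraries (139 against 21.2 CPM). With the combination, BCL11B was instead 18.1-fold higher in the LNCaP-labelled libraries (4.26 against 0.236 CPM), or 23.0-fold from combination replicate 2 alone (5.43 CPM), and TMEM154 overlapped between the lines (2.07 ± 0.414 against 1.66 ± 0.307 CPM). Over all 6 groups, FYN was highest in LNCaP-labelled R1881 and lowest in C4-2 with namoline, IL2RB was lowest in C4-2 with namoline and did not differ beyond its spread between that group and the LNCaP-labelled combination, and BCL11B was lowest in C4-2 with the combination.

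Around IL2RB, the ligand and the alpha chain of the interleukin 2 receptor were not detected. Interleukin 2 itself (IL2) and the high-affinity alpha chain IL2RA had 0 counts in all 12 libraries, so at most 0.195 CPM. The common gamma chain IL2RG stayed at or under 0.475 CPM in every group mean. IL15RA, the private chain of the interleukin 15 receptor, was at 3.72 CPM with R1881 in C4-2, and 2.83, 5.49 and 6.14 CPM with namoline, TCE-5002 and the combination. The kinase JAK1 (33.0 CPM with R1881) and the transcription factors STAT3 (193 CPM) and STAT5B (66.7 CPM) were present throughout. None of these 4 was called in C4-2 against R1881. IL15RA, JAK1, STAT3 and STAT5B were chosen for their place in the pathway and fell outside the rule for naming genes.

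Of the 20 genes listed with IL2RB, 16 were tested in C4-2. With namoline 3 were called higher (PIM1, PIM2 and CISH) and 1 lower (SYK), while 12.1% of all genes were called in either direction. TCE-5002 gave the same 3 higher, and SYK and SOCS1 lower, against 11.8% of all genes. The combination gave PIM1, STAT5A and IL15 higher and SYK and SOCS2 lower, against 21.7%. CISH, SOCS1 and IL15 lay outside the rule for naming genes and are named because the counts are small. On leaving out 1 library the namoline count fell from 4 to 2 without R1881 replicate 2 or namoline replicate 2, and the TCE-5002 count from 5 to 3 without R1881 replicate 1. The list's median log2 fold changes were 0.08, 0.49 and 0.69, while those over all genes lay between -0.03 and 0.

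PIM1, a survival kinase induced by STAT5 in lymphocytes, rose with every treatment in C4-2. It stood at 3.62 ± 0.755 CPM with R1881, 13.5 ± 2.95 with namoline, 15.1 ± 0.162 with TCE-5002 and 54.9 ± 9.47 with the combination (log2 fold change against R1881 1.90, 2.08 and 3.91, edgeR adjusted p = 1.03e-05, 5.63e-06 and 6.23e-09). PIM2, its paralog, rose with namoline and with TCE-5002 (log2 fold change 1.38 and 1.29) from 10.6 ± 1.82 CPM. STAT5A, at 4.51 CPM with R1881 beside 66.7 CPM for STAT5B, rose 1.08 (SE 0.21) with the combination. That call was lost without R1881 replicate 1 or combination replicate 2, where the lowest value was 0.88. SOCS2, a feedback inhibitor, fell by 1.23 on the log2 scale with the combination. SYK, a kinase recruited by immune receptors, fell with all 3 treatments from a low 1.59 ± 0.135 CPM, by 1.29, 2.00 and 3.70 on the log2 scale; the namoline call was lost in 5 of 14 alternatives, among them the removal of any 1 R1881 or namoline library, and the TCE-5002 call without R1881 replicate 1 (values -1.45 to -1.18 and -2.33 to -1.72). It also fell in the LNCaP-labelled libraries, from 10.3 ± 0.846 to 2.57 ± 0.906 CPM (log2 fold change -1.96, SE 0.24, edgeR adjusted p = 1.81e-08), and by 2.36 without combination replicate 1.

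Of the same list, 14 genes were tested in the LNCaP-labelled libraries, with 0 higher and 2 lower (SYK and SOCS1), beside 18.8% of all genes called in either direction. Leaving out combination replicate 1, 4 of 17 tested were lower, and without R1881 replicate 1 or combination replicate 2 it was 1. PIM1 was lower there, at 17.7 ± 1.66 CPM with the combination against 29.1 ± 1.63 CPM, or -0.67 on the log2 scale, short of 2-fold (-0.77 without combination replicate 1).

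**Figure D3:**
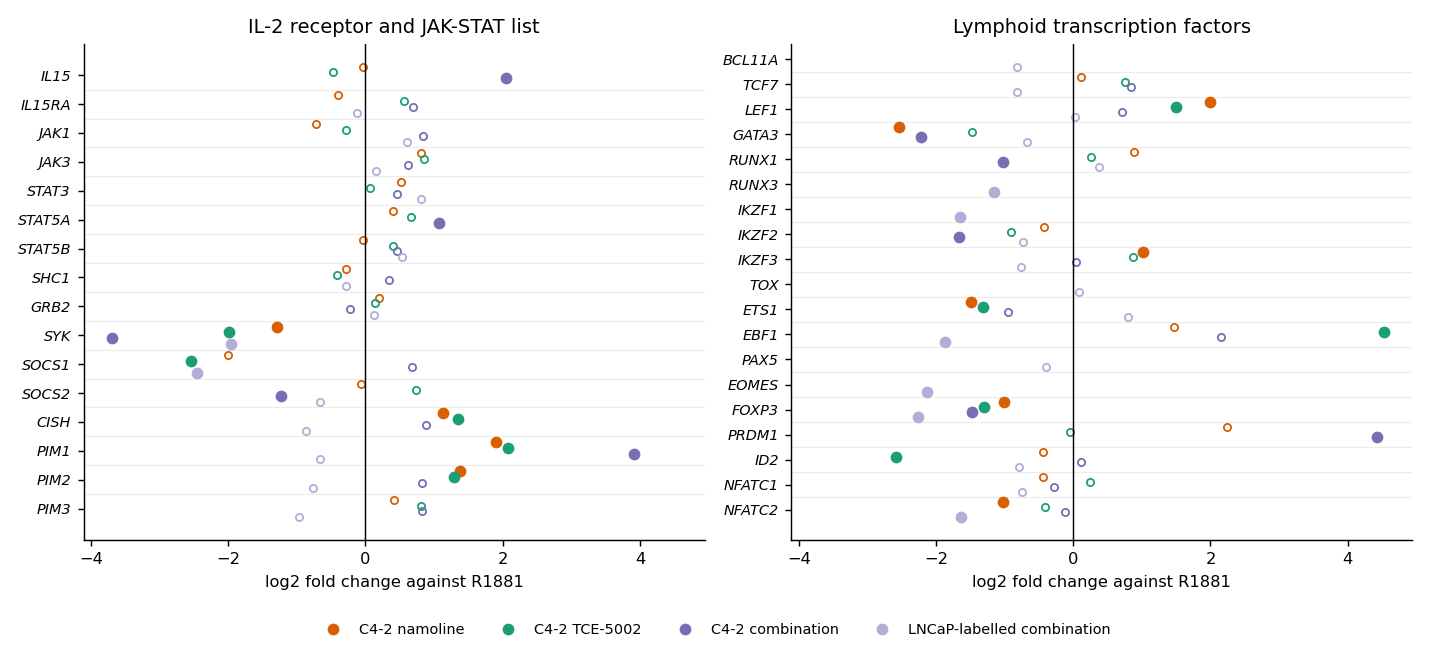
Log2 fold change against R1881 alone of the tested genes listed with IL2RB (left) and of the lymphoid transcription factors listed with BCL11B (right), coloured by comparison. Filled points passed the adjusted p and 2-fold thresholds, open points did not, and comparisons with a group at 0 counts are left out. PIM1 is filled on the right side in all 3 C4-2 comparisons (1.90, 2.08 and 3.91) and SYK on the left side in all 4.

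Other transcription factors of lymphoid development did not share a direction. Of 20 listed beside BCL11B, 13 were tested in C4-2, with 2 higher (LEF1 and IKZF3) and 4 lower (GATA3, ETS1, FOXP3 and NFATC2) with namoline, 2 higher (LEF1 and EBF1) and 3 lower (ETS1, FOXP3 and ID2) with TCE-5002, and 1 higher (PRDM1) and 4 lower (GATA3, RUNX1, IKZF2 and FOXP3) with the combination. Over all genes 12.1%, 11.8% and 21.7% were called in either direction. The counts rested on single libraries: without R1881 replicate 1 the namoline count went from 6 to 2 and the TCE-5002 count from 5 to 2, without namoline replicate 2 the namoline count was 3, and without combination replicate 2 the combination count went from 5 to 3. LEF1, IKZF3, GATA3, ETS1, FOXP3, EBF1 and PRDM1 are named because the counts are small. ID2, an inhibitor of E proteins, fell with TCE-5002 from 15.5 ± 1.66 to 2.56 ± 0.173 CPM (log2 fold change -2.59, SE 0.18, edgeR adjusted p = 4.06e-07) and stood at 17.0 ± 0.876 CPM with the combination, 0.11 above R1881 on the log2 scale. Its combination level was 2.70 (SE 0.18) above TCE-5002 on the log2 scale. IKZF2, an Ikaros family factor of regulatory T cells, fell from 7.12 ± 0.0584 to 2.26 ± 0.896 CPM with the combination (log2 fold change -1.67, SE 0.28). NFATC2, the calcineurin-regulated factor of activated T cells, fell by 1.03 with namoline, and RUNX1 fell by 1.02 with the combination. The NFATC2 call was lost without R1881 replicate 1 or namoline replicate 2 (-0.82 at the smallest), and the RUNX1 call in 4 of 14 alternatives, including those without R1881 replicate 2 or combination replicate 2 (-0.78 at the smallest).

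The LNCaP-labelled libraries held more of this group, including BCL11A, the paralog of BCL11B, at 37.1 CPM with R1881 against 0.0884 CPM, under 3 counts a library, in C4-2. Of 19 tested there, 0 were higher and 7 lower with the combination, beside 11.3% of all genes called lower, and without combination replicate 1 it was 8 lower of 20. The list's median log2 fold change was -0.79, beside -0.01 over all genes. IKZF1, the founding Ikaros factor, fell from 5.06 ± 0.115 to 1.55 ± 0.0371 CPM (log2 fold change -1.65, SE 0.29, edgeR adjusted p = 1.13e-05), and RUNX3, a factor of CD8 T cells, from 16.0 ± 0.267 to 6.94 ± 0.124 CPM (log2 fold change -1.15, SE 0.17, edgeR adjusted p = 6.83e-07). Both were still called without combination replicate 1, at -1.68 and -1.17. NFATC2, at 1.08 CPM with R1881, was also called lower (-1.64), a call lost in 4 of 9 alternatives, including those without either R1881 library or without combination replicate 1 (-2.07 to -1.35). The other 4, below 5 CPM and named after their values were seen, were EBF1, EOMES, FOXP3 and PRDM1, the last at 0 counts with the combination.

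Subunits of the NuRD and BAF complexes, which BCL11 proteins join, did not pass 2-fold against R1881 in C4-2. All 20 were tested, and edgeR called 0 of them at 2-fold with namoline, with TCE-5002 or with the combination, although 1 was called lower with the combination when R1881 replicate 1 was left out. By the unadjusted p alone 10, 11 and 10 of them were under 0.05, and DESeq2 also called 0 in each. Over all genes 12.1%, 11.8% and 21.7% were called in these comparisons. The list's median log2 fold changes were 0.22, 0.07 and -0.19. Between treatments some did differ. The combination had 1 higher (GATAD2B) and 2 lower (MBD3 and RBBP7) than namoline, while 27.5% of all genes were called, and the same 1 and 2 against TCE-5002, while 26.1% were. MBD3 was at -1.46 and -1.32 on the log2 scale, RBBP7 at -1.16 and -1.12 and GATAD2B at 1.10 and 1.07. Against TCE-5002, the MBD3 call was lost without TCE-5002 replicate 2 (-0.92) and the RBBP7 call without TCE-5002 replicate 1 (-0.93). RBBP7 and GATAD2B are named because the counts are small. In the LNCaP-labelled libraries 1 was called, the NuRD subunit MBD3, which fell from 192 ± 5.94 to 91.3 ± 18.9 CPM (log2 fold change -1.02, SE 0.12, edgeR adjusted p = 4.66e-09), a call lost without R1881 replicate 1 or combination replicate 2 (-0.82 at the smallest). Over all genes 18.8% were called in either direction there. Without combination replicate 1, RBBP7 was at 1.05 and MBD3 at -1.25 on the log2 scale. The NuRD helicase CHD4, named as its core enzyme, stood at 302 CPM with R1881 and 264 CPM with the combination in C4-2.

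No tested SRC family relative of FYN was called lower with a single inhibitor. SRC stood at 39.4, 49.2, 39.6 and 66.9 CPM with R1881, namoline, TCE-5002 and the combination, YES1 at 140, 160, 175 and 256 CPM, and LYN at 16.8, 24.8, 24.7 and 13.8 CPM. None of these 3, named as the broadly expressed members, was called against R1881. LCK, the partner of FYN in T cells, did not exceed 0.788 CPM in any group mean. FRK, an epithelial relative, fell with the combination from 13.8 ± 1.83 to 5.40 ± 1.44 CPM (log2 fold change -1.38, SE 0.20, edgeR adjusted p = 4.84e-05). In all, 5 relatives were tested in C4-2, with 0 called with namoline, 1 higher with TCE-5002 (LCK, at well under 1 CPM, lost in 10 of 14 alternatives) and 1 lower with the combination. Over all genes 12.1%, 11.8% and 21.7% were called in these comparisons, so nothing is read from counts this small. With namoline 3 had an unadjusted p under 0.05 and DESeq2 called 0. In the LNCaP-labelled libraries 4 were tested and 0 called, beside 18.8% of all genes. There 4 had an unadjusted p under 0.05 and DESeq2 called 0. FRK was at -0.87 on the log2 scale there, and at -1.09 without combination replicate 1.

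Regulators and substrates of FYN were 14 of 20 tested in C4-2, and edgeR called 0 with namoline and 0 with TCE-5002, although 1 was called higher with namoline in 6 of the 8 fits that left out 1 library. By the unadjusted p, 6 and 6 were under 0.05, and DESeq2 called 0 in both. With the combination 1 was higher and 2 were lower, while 21.7% of all genes were called, and DESeq2 called 2 of the 3. PAG1, the membrane adaptor that holds the inhibitory kinase CSK near SRC kinases, fell from 24.6 ± 1.54 to 8.50 ± 1.94 CPM (log2 fold change -1.55, SE 0.17, edgeR adjusted p = 4.16e-06). The others, SKAP1 (1.16) and NEDD9 (-1.17), were under 3 CPM in C4-2 and are named because the count is small. Both calls were lost without R1881 replicate 1 or without combination replicate 1, leaving PAG1 alone, and SKAP1 was also lost without R1881 replicate 2. CSK itself, not called, was at 66.5 CPM with R1881 and 54.0 CPM with the combination.

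Of these, 16 were tested in the LNCaP-labelled libraries, with 1 higher and 2 lower, a share close to the 18.8% of all genes called in either direction. BCAR1, a focal adhesion substrate of SRC kinases, fell from 83.5 ± 2.87 to 19.2 ± 3.57 CPM (log2 fold change -2.07, SE 0.13, edgeR adjusted p = 9.21e-15), and PTPN11, the phosphatase SHP2, rose from 243 ± 18.4 to 506 ± 0.607 CPM (log2 fold change 1.12, SE 0.11, edgeR adjusted p = 2.20e-10). NEDD9 was the other lower gene, a call lost without R1881 replicate 1 and with DESeq2. Without combination replicate 1, 1 was higher and 3 lower of 17, with BCAR1 at -2.27 and PTPN11 at 1.12. These changes came with FYN itself within 1.23-fold between the groups.

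Nearby genes were examined next, to see whether the differences extended along the chromosome. Of the 2 closest protein-coding genes on each side of each gene, 16 in all, 13 were tested in C4-2. Namoline gave 1 higher (VRK1) and 1 lower (TUBE1), while 12.1% of all genes were called. VRK1 lies as far as 2238 kb from BCL11B, and its call was lost without namoline replicate 2, where it was 0.94. TCE-5002 gave 0, with 4 at an unadjusted p under 0.05 and 0 called by DESeq2, while 11.8% of all genes were called. The combination gave 1 higher (FBXW7), while 21.7% were called. TUBE1, encoding epsilon-tubulin and 197 kb from FYN, stood at 58.8 CPM with R1881, 13.8 with namoline, 34.7 with TCE-5002 and 89.4 with the combination, and its log2 fold change with namoline was -2.11 (SE 0.15, edgeR adjusted p = 1.19e-07). TRAF3IP2 at 54.1 kb and REV3L at 177 kb on the other side of FYN did not pass 2-fold. With namoline, TCE-5002 and the combination, REV3L had log2 fold changes of -0.41, -0.49 and 0.53, and TRAF3IP2 -0.27, -0.09 and 0.58. The edgeR adjusted p was under 0.05 for REV3L in all 3 comparisons, and for TRAF3IP2 with the combination only. C1QTNF6, only 5.11 kb from IL2RB, had log2 fold changes of -0.92, -0.48 and -0.60, and KCTD17 at 62.5 kb had -0.35, -0.32 and -0.49. SETD3 and CCNK, on the higher side of BCL11B, had combination values of 0.53 and 0.96.

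Beside TMEM154, ARFIP1 at 7.56 kb had -0.15, -0.06 and -0.56, whereas FBXW7, a ubiquitin ligase subunit at 82.5 kb, rose from 17.9 to 42.5 CPM with the combination (log2 fold change 1.22, SE 0.14, edgeR adjusted p = 9.26e-06). Among the neighbours, 14 were tested in the LNCaP-labelled libraries, with 3 higher (VRK1, CCNK and TIGD4), beside 18.8% of all genes called in either direction. Of the 3, CCNK, at 1.00, was lost in 3 of 9 alternatives, among them those without R1881 replicate 1 or combination replicate 1 (0.97 at the smallest). VRK1 and TIGD4 were still called without combination replicate 1, at 1.31 and 2.59. Genes overlapping the 4 on the opposite strand could share reads, because counting did not use strand, but none had more than 6 counts in a library.

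**Figure D4:**
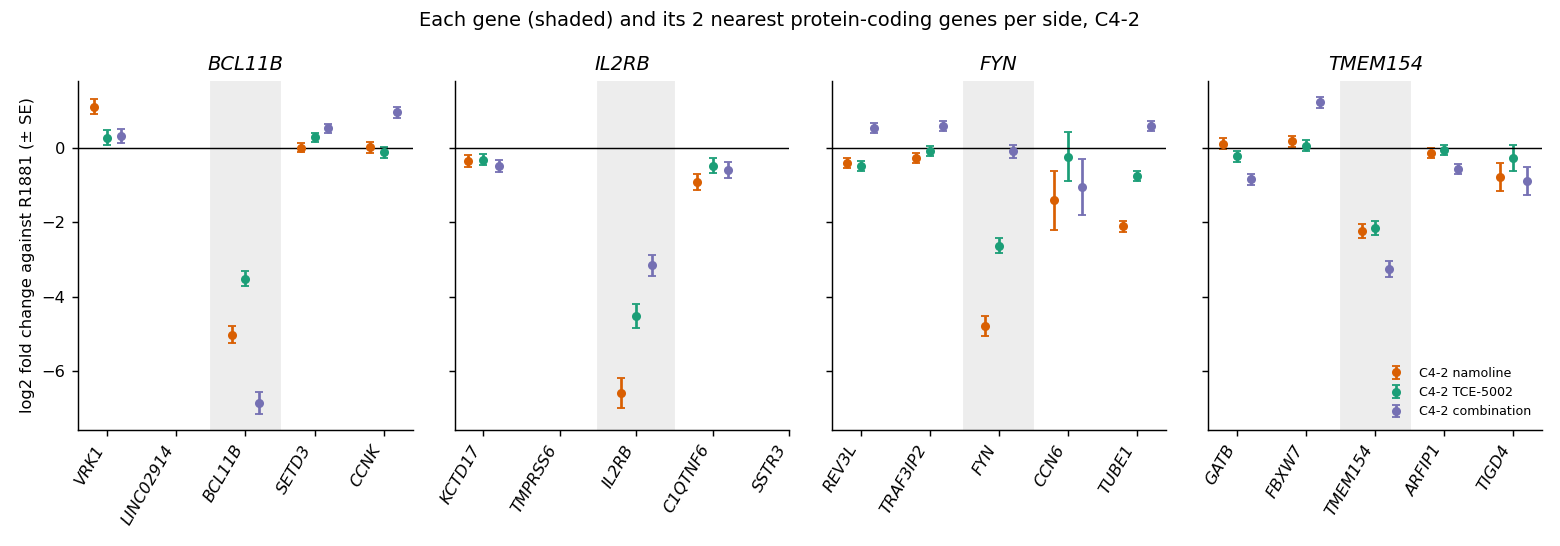
Log2 fold change against R1881 alone in C4-2 (bars show the SE) of each of the 4 genes, shaded, and of the 2 nearest protein-coding genes on each side in chromosome order. LINC02914, TMPRSS6 and SSTR3 have no point because they fell below the count filter, and TUBE1 near FYN is the only neighbour under -2.

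As a description, genes were ranked by how closely their log2(CPM + 1) followed each of the 4 over the 8 C4-2 libraries, among 10079 protein-coding genes with a group mean of at least 10 CPM. These libraries fall into 4 groups, so the correlation mostly compares 4 levels. The 4 closest to BCL11B were STYXL2 (Pearson r = 0.992), CLCN4 (0.990), PUS10 (0.987) and TACC2 (0.986), of which STYXL2 went from 55.9 CPM with R1881 to 4.87, 10.0 and 2.56 CPM. Closest to IL2RB were SLC7A1 (0.993), SLC6A9 (0.987), RNF41 (0.980) and NINL (0.978). SLC7A1 and SLC6A9 are amino acid transporters, and SLC6A9 went from 127 CPM to 18.9, 30.7 and 42.6 CPM.

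FYN was followed most closely by ERV3-1 (0.997), TTC39B (0.993), SLC25A36 (0.992) and CAPN5 (0.991), of which TTC39B stood at 102, 22.1, 40.0 and 87.4 CPM and CAPN5 at 100.2, 21.7, 37.5 and 81.8 CPM. TMEM154 was followed by ZNF780B (0.995), WDR72 (0.994), FOXP1 (0.991) and YJEFN3 (0.990). Between the 4 genes themselves, r was 0.98 for BCL11B with TMEM154, 0.84 for BCL11B with IL2RB, 0.80 for IL2RB with FYN, 0.78 for IL2RB with TMEM154, 0.41 for BCL11B with FYN and 0.30 for FYN with TMEM154. All of the pairs share the same 8 libraries. Over all 12 libraries the values were 0.84, 0.56, -0.014, 0.76, 0.44 and -0.037 in the same order, so the likeness of IL2RB to FYN held in C4-2 but not over both sets. The same was seen for some of the closest genes, with 0.054 for TACC2 with BCL11B, -0.072 for NINL with IL2RB and -0.43 for ERV3-1 with FYN over 12 libraries.

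**Figure D5:**
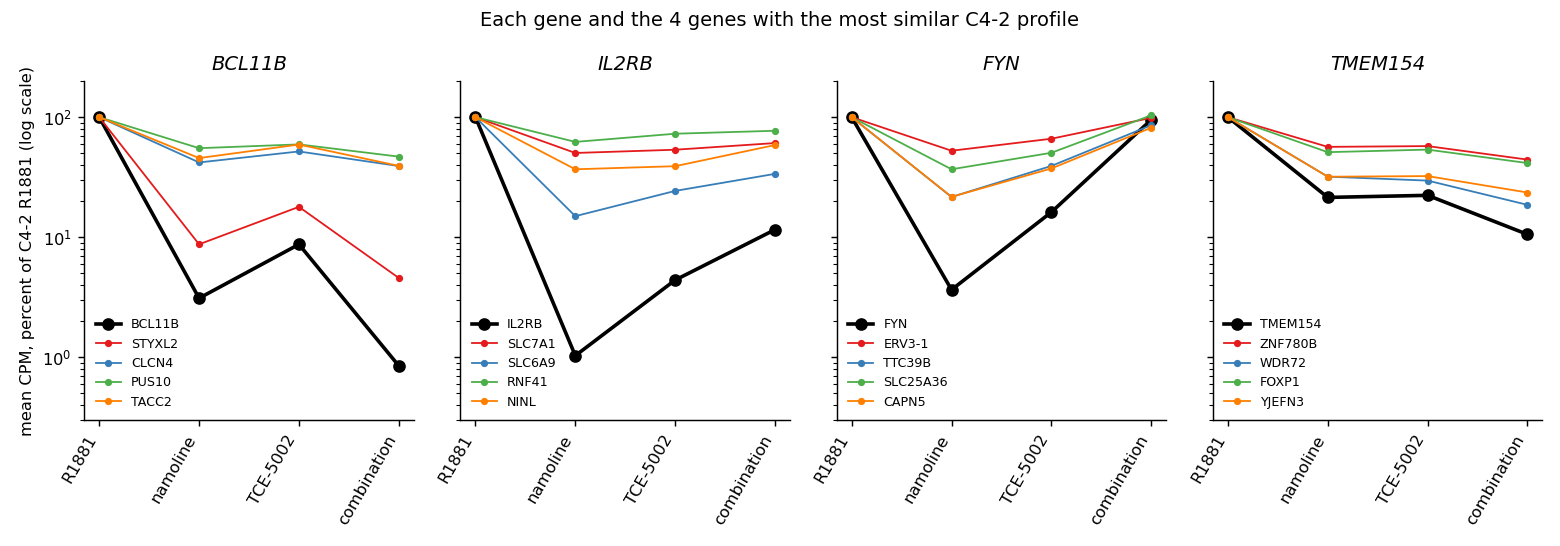
Mean level in the 4 C4-2 groups as a percent of the R1881 group, on a log axis, for each of the 4 genes (black) and the 4 genes with the highest Pearson r to it over 8 libraries. FYN returns to 95.2% with the combination, beside its closest genes, while BCL11B stands at 0.848%.

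Prostate epithelial genes differed in the same libraries. Of 14 listed, 2 were called higher with namoline (KRT19 and TMPRSS2), 4 higher with TCE-5002 (CLDN3, KLK2, KLK3 and TMPRSS2) and 6 lower with the combination, among them KLK3, from 217 ± 15.7 to 48.3 ± 8.11 CPM (log2 fold change -2.19, SE 0.16, edgeR adjusted p = 1.08e-07). Over all genes 12.1%, 11.8% and 21.7% were called. Without namoline replicate 2 neither namoline call was left, and TMPRSS2 was also lost without R1881 replicate 1 (0.91 at the smallest). Without TCE-5002 replicate 2 the TCE-5002 count went from 4 to 1, leaving TMPRSS2, with KLK3 at 0.91 and KLK2 at 0.92, and KLK3 was also lost without R1881 replicate 1. Their summed level was 4489 to 4707 CPM with R1881, 4500 to 4805 CPM with namoline, 6090 to 6331 CPM with TCE-5002 and 2845 to 2907 CPM with the combination. The sums of R1881 and namoline libraries overlapped, but the genes within them moved in both directions. With namoline, CDH1 went from 977 to 616 CPM and TMPRSS2 from 388 to 800 CPM, so the sum does not show unchanged epithelial genes. Of the 12 mesenchymal markers, 5 were tested, with 1 higher (ZEB1) and 3 lower (VIM, FN1 and PDGFRB) with the combination. DESeq2 called 2 of these 4, as did edgeR without R1881 replicate 1 or combination replicate 2. VIM was at -1.001 (edgeR adjusted p = 0.0193) and was lost in 6 of 14 alternatives, and PDGFRB in 4. With namoline and with TCE-5002 edgeR and DESeq2 called 0 of the 5, and 2 and 1 had an unadjusted p under 0.05 in edgeR. In the LNCaP-labelled libraries 3 of 13 prostate markers tested (KLK2, KLK3 and KLK4) were lower with the combination, and 4 without combination replicate 1, where 1 of 8 mesenchymal markers tested was lower, against 0 with it. The part of these differences in the combination values of the 4 genes was not tested.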

How the data were processed

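RNA from 12 libraries was sequenced as paired ends after polyA capture. The authors trimmed reads with Trim Galore, aligned them to GRCh38 with STAR and deposited raw counts per gene, made per the file headers with featureCounts 1.5.0-p1 on Ensembl release 83 without a strand option. No columns of other samples were present. Groups were taken from the sample titles, since the treatment field describes another experiment. Library totals were 14791602 to 20690819, so that 3 counts correspond to 0.137 to 0.195 CPM.

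From the counts, CPM were computed with TMM factors over 12 libraries. Fold changes came from edgeR 4.0.16 (R 4.3.3, limma 3.58.1), with its count filter and quasi-likelihood fit, on 8 C4-2 libraries (17702 genes) or 4 LNCaP-labelled libraries (17565 genes), and DESeq2 1.42.0 served as an alternative. A call needed a Benjamini-Hochberg adjusted p under 0.05 and a 2-fold change. SEs were derived from the fold change and its F statistic. Counting intervals are 95% intervals. The fit was tested on simulated data.

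The 4 genes and the 8 gene lists (markers of lymphocytes, prostate epithelium and mesenchyme, lymphoid transcription factors, BCL11B partners, the interleukin 2 receptor pathway, the SRC family, and FYN regulators and substrates) were chosen with earlier results of these data known. Besides the 4 genes and their neighbours, up to 4 called genes per list with the largest change and at least 5 CPM, and the 4 genes most like each of the 4, were named. Alternatives were RLE scaling, no count filter, DESeq2, the likelihood ratio test, a fit on the compared libraries alone, a block for the replicate number and leaving out each library.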

Additional observations from a re-analysis of the deposited data

How the results depend on the processing

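Over 332 alternatives of the 24 C4-2 log2 fold changes of the 4 genes, 312 moved by less than their spread, 19 moved by more and 1 reversed. Many of these alternatives left out a library of a group not compared, which hardly moves a fold change, so 312 of 332 overstates the stability. BCL11B with namoline, at -5.012, was -5.004 without TCE-5002 replicate 2 but -5.42 without namoline replicate 1. The reversed value was FYN with the combination against R1881, at 0.027 without combination replicate 1 and -0.217 without combination replicate 2, in place of -0.10. In the LNCaP-labelled libraries, leaving out 1 library moved BCL11B between -1.42 and -0.61 and TMEM154 between -1.19 and -0.77. IL2RB there was -0.20 (edgeR adjusted p = 0.879) with no count filter. The adjusted p of FYN there was 0.0526 with RLE scaling and 0.0758 with DESeq2. With the replicate number as a block, edgeR called 2181 genes with namoline in place of 2134, 2129 with TCE-5002 in place of 2096, 3871 with the combination in place of 3834 and 3062 in place of 3293 in the LNCaP-labelled libraries, and the adjusted p of FYN was 0.0742 there. None of the 3 genes tested in the LNCaP-labelled libraries was called at 2-fold, with or without the block. Deviations of same-numbered C4-2 libraries from their group means correlated at over 0.1 for 5 of 6 pairs of groups (0.132 to 0.465) and at -0.036 for namoline with the combination, and at 0.014 for the LNCaP-labelled groups, so the block was kept as an alternative. Groups of 2 libraries and values of 3 to 10 counts a library limit what can be told of the lowest levels.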
